A study of Mus musculus with 4 samples.

Results

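The olfactory signal transduction cascade was followed through 10 genes expressed by mature olfactory receptor neurons (ORNs), in nasal mucosa of young adult and aged mice. The 10 genes were *Omp*, *Gnal*, *Gng13*, *Adcy3*, *Cnga2*, *Cnga4*, *Cngb1*, *Ano2*, *Slc24a4* and *Pde1c*, taken by symbol. They were chosen with earlier results of these data known. All 10 were on the array, with 16 of its 56605 non-control probes, found by matching each probe's accession to a RefSeq gene table. They were 10 of the 45616 genes tested.

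In the cilia of an ORN, an odorant receptor activates the G protein Golf, which switches on an adenylyl cyclase, and the cyclic AMP made there opens a cyclic nucleotide-gated (CNG) channel. The calcium that enters opens a chloride channel, and the outflow of chloride adds to the depolarization. Calcium is then pumped or exchanged out of the cilium and cyclic AMP is broken down, which ends the response.

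The young adult group was 8 weeks old and the aged group 16 months old, all of strain C57BL/6J and, per the study's methods, male. The sample titles and the methods name no treatment, transgene or deletion for the mice of these arrays. Descriptions of silica and lung in the labels match neither and were not used. Each age had 2 Agilent one-color arrays, and each array carried the Cy3-labelled RNA of septal nasal mucosa pooled from 5 mice. The methods give too few mice per age for 2 pools of 5 without overlap, so the pools of one age may share mice, and P-values then measure only the spread between these pools. The comparison asks how the expression of these genes in the nasal mucosa differs with age. Young adult 1 and aged 1 lay on one slide, and young adult 2 and aged 2 had separate slides.

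The values below are normalized intensities, the brightness of a probe after background correction and quantile normalization, averaged over the probes of a gene. A log2 fold change is aged minus young adult. A gene was called where limma's moderated test gave P below 0.05 and an FDR below 0.25, adjusted by Benjamini-Hochberg over the whole table. No spot was saturated, and 63.1 to 76.8% of the 59305 non-control spots of an array were well above background. The labels name the tissue as olfactory epithelium. Markers of mature ORNs, of sustentacular cells (the supporting cells of the olfactory epithelium), of basal cells and of respiratory ciliated cells were all well above background on the 4 arrays, so the RNA held more than ORNs. In such bulk RNA, fewer cells of a type and less RNA per cell cannot be told apart. *Xist*, which is transcribed from an inactive X chromosome, was at 612 to 645 and well above background on all 4 arrays, and of 8 Y-linked genes only *Sry*, on 1 array, was well above background. These values go against the male sex given in the methods, in both ages alike, and their part in the results below was not tested.

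None of the 10 cascade genes was called in either direction by limma, where 1.65% of all genes were called higher and 2.33% lower in aged mice. At P below 0.05 without the FDR limit, *Adcy3*, *Cngb1* and *Pde1c* were higher in aged mice and none was lower, against 6.05% and 7.09% of all genes. All 10 log2 fold changes were above 0, from 0.05 for *Gnal* to 0.44 for *Pde1c*, where 51.5% of all genes lay above 0. For all 10 genes both aged arrays lay above both young adult arrays, as they did for 24.2% of all genes (21.8% had both below) and for 32.5% of the 24763 genes whose probes were all well above background on every array. The median log2 fold change of the cascade genes was 0.22, and that of all genes was 0.01. All 16 probes were well above background on all 4 arrays and none of their spots was flagged as an outlier.

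**Figure D1:**
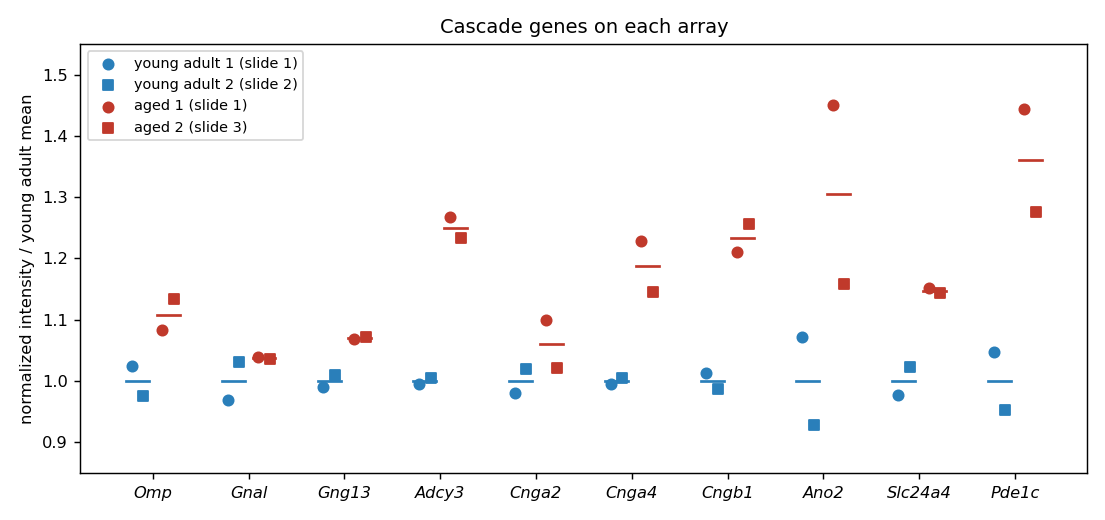
The vertical axis gives each array's normalized intensity divided by the gene's young adult mean, and the horizontal axis gives the 10 cascade genes in the order of the cascade. Blue points are the young adult arrays, red points the aged arrays, circles the arrays that share slide 1, and short lines the means of 2 arrays. All red points lie above the blue points of the same gene, with the smallest gaps for *Gnal* and *Cnga2* and the widest for *Adcy3*, *Cngb1* and *Pde1c*.

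*Omp* encodes olfactory marker protein, a small cytosolic protein that is abundant in mature ORNs and marks them. Its intensity was 300826 and 286061 in the young adult pools and 317836 and 332591 in the aged pools. The 2 ages did not overlap, and the mean was 293444 ± 10441 (SD, n = 2) for the young adult pools and 325213 ± 10434 for the aged pools. The log2 fold change was 0.15 (standard error 0.083, 95% interval -0.10 to 0.40, FDR = 0.549 by limma). The difference was thus not distinguishable from the spread between pools.

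*Gnal* encodes the alpha subunit of Golf, the G protein that couples odorant receptors to the cyclase. It was at 89803 and 95610 in the young adult pools and at 96336 and 96023 in aged mice. Young adult 2 lay just under both aged arrays, and young adult 1 lay lower. The log2 fold change was 0.05 (standard error 0.081, 95% interval -0.19 to 0.30, FDR = 0.81 by limma). The value was 0.01 without young adult 1, 0.11 without young adult 2 and 0.16 with the scanner software's processed signal, under either scaling.

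*Gng13* encodes a gamma subunit that forms part of the same G protein in ORNs. Its intensity was 112228 and 114508 in the young adult pools and 121180 and 121566 in aged mice, so that the arrays of each age lay close together. The log2 fold change was 0.10 (standard error 0.074, 95% interval -0.12 to 0.32, FDR = 0.637 by limma).

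*Adcy3* encodes adenylyl cyclase 3, which makes the cyclic AMP of the odor response. It was at 5022 and 5068 in the young adult pools and at 6393 and 6222 in the aged pools. Both ages were tight, with a mean of 5045 ± 33.0 (SD, n = 2) for the young adult pools and 6307 ± 121 for the aged pools. The difference was 1.25-fold, a log2 fold change of 0.32 (standard error 0.075, 95% interval 0.10 to 0.55, FDR = 0.289 by limma). The gap between the ages was wider than the spread within them, and the FDR missed the limit.

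The CNG channel of ORNs is built from the products of *Cnga2*, the subunit that can open on its own, and of *Cnga4* and *Cngb1*, which adjust its sensitivity to cyclic nucleotides and its response to calcium. *Cnga2* was at 15344 and 15965 in the young adult pools and at 17201 and 15989 in aged mice. Aged 2 lay just above young adult 2, so the separation of the ages rested on a small gap. The log2 fold change was 0.08 (standard error 0.087, 95% interval -0.18 to 0.34, FDR = 0.726 by limma). It was 0.06 without young adult 1, 0.03 without aged 1 and 0.14 without aged 2.

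*Cnga4* was at 7466 and 7538 in the young adult pools and at 9220 and 8590 in the aged pools, with no overlap. Its log2 fold change was 0.25 (standard error 0.083, 95% interval -0.0030 to 0.50, FDR = 0.385 by limma). *Cngb1* was at 1546 and 1508 in the young adult pools and at 1847 and 1919 in aged mice, a wider gap than the spread of either age. The difference was 1.23-fold, a log2 fold change of 0.30 (standard error 0.078, 95% interval 0.07 to 0.53, FDR = 0.309 by limma). Across the 3 subunits the log2 fold change thus ranged from 0.08 to 0.30, and their 95% intervals overlapped.

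*Ano2* encodes the calcium-activated chloride channel of the cilia. It was at 12309 and 10653 in the young adult pools and at 16656 and 13301 in aged mice. The arrays of one age differed more for *Ano2* than for any other cascade gene, with aged 1 far above aged 2, although the lowest aged array lay above both young adult arrays. The log2 fold change was 0.38 with a standard error of 0.17 (95% interval -0.12 to 0.87, FDR = 0.469 by limma). It was 0.22 without aged 1 and 0.54 without aged 2, so the size rested on which aged array was kept.

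*Slc24a4* encodes a potassium-dependent sodium/calcium exchanger that clears calcium from the cilium and so takes part in ending the response. Its intensity was 2112 and 2207 in the young adult pools and 2487 and 2470 in the aged pools, without overlap. The log2 fold change was 0.20 (standard error 0.078, 95% interval -0.03 to 0.43, FDR = 0.427 by limma).

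*Pde1c* encodes a calcium/calmodulin-dependent phosphodiesterase that breaks down cyclic AMP in the cilium. It was at 809 and 737 in the young adult pools and at 1116 and 986 in aged mice. The lowest aged array lay above the highest young adult array, and the means were 773 ± 51.1 (SD, n = 2 pools) and 1051 ± 91.5. The difference was 1.36-fold, a log2 fold change of 0.44 (standard error 0.11, 95% interval 0.10 to 0.78, FDR = 0.307 by limma), above those of the other 9 genes with all 4 arrays. Without aged 2, *Pde1c* was at 0.53 and *Ano2* at 0.54.

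**Figure D2:**
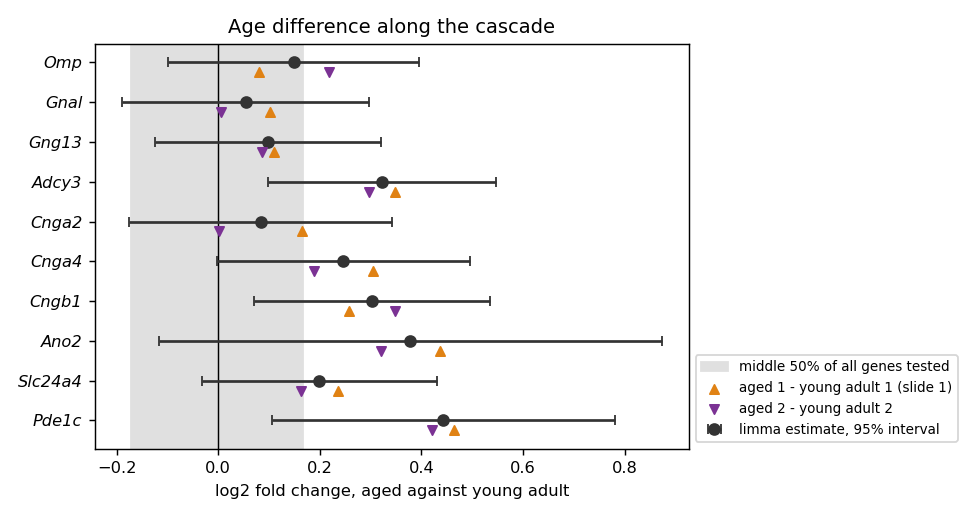
The horizontal axis gives the log2 fold change, aged against young adult, of each cascade gene, with limma's estimate and its 95% interval in black. Triangles are the differences within slide 1 and between the other 2 arrays, and the grey band holds the middle 50% of all genes tested. The intervals of *Adcy3*, *Cngb1* and *Pde1c* lie above 0, those of the other 7 genes reach 0 or below, and no triangle lies below 0.

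Within slide 1, where both ages were hybridized, the log2 difference was above 0 for all 10 genes, from 0.08 for *Omp* to 0.46 for *Pde1c*. Between the other 2 arrays, which lay on different slides, it was above 0 for all 10 as well, from 0.0021 for *Cnga2* and 0.0062 for *Gnal* to 0.42 for *Pde1c*. *Adcy3*, at 0.35 and 0.30, and *Pde1c*, at 0.46 and 0.42, were close between the pairs. Each such value comes from 1 array of each age and has no test.

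Of the 10 genes, 6 had 1 probe and 4 had several. The 3 probes of *Cngb1* had log2 fold changes of 0.46, 0.24 and 0.21. The first of these was at 14508 and 14769 in the young adult pools and at 20306 and 19834 in the aged pools. It was the only cascade probe called in a fit over all probes (FDR = 0.22 by limma), where 4.5% of all probes were called. The 3 probes of *Pde1c* had log2 fold changes of 0.51, 0.50 and 0.32, the 2 of *Cnga4* 0.20 and 0.29, and the 2 of *Slc24a4* 0.25 and 0.15. The probes of a gene thus had the same direction in every case, and the probes of *Cngb1* were the farthest apart.

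**Figure D3:**
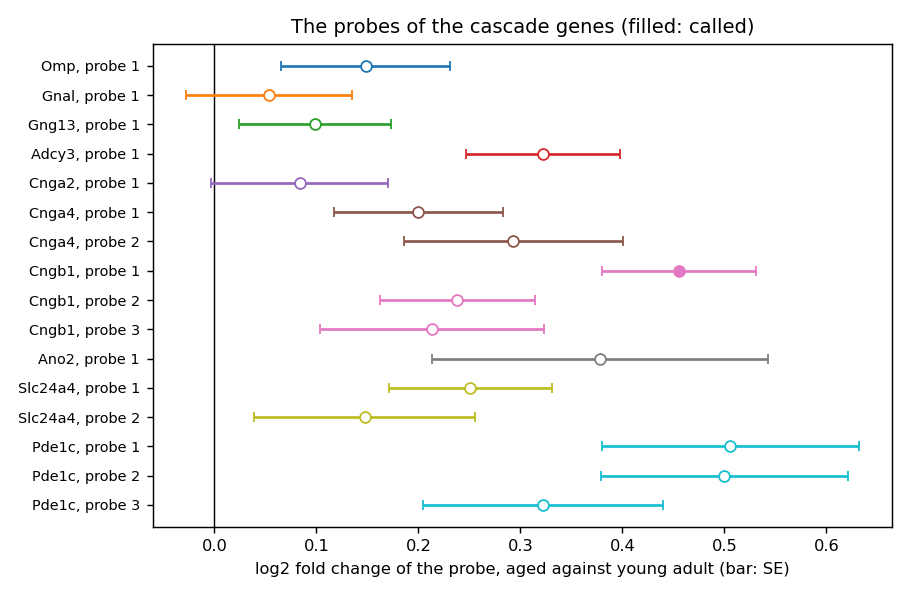
The horizontal axis gives the log2 fold change, aged against young adult, of each of the 16 probes of the cascade genes, with bars for the standard error and one color per gene. The filled point is the called probe of *Cngb1*, and all 16 points lie above 0.

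To set the other genes against the marker of mature ORNs on the same array, the log2 value of *Omp* was subtracted from that of every gene. *Omp* was among the brightest genes, and quantile normalization sets such values by their rank on the array, which limits it as a reference. With scaling to the 75th percentile in place of quantile normalization, the log2 fold change of *Omp* was 0.19. None of the other 9 cascade genes was called relative to *Omp* by limma, and none had P below 0.05, where 1.27% of all genes were called higher and 7.28% lower. *Pde1c* had the largest relative difference, a log2 fold change of 0.29 (FDR = 0.391), followed by *Ano2* at 0.23 (FDR = 0.566), *Adcy3* at 0.17 and *Cngb1* at 0.15 (FDR = 0.483 for both). *Gnal*, at -0.09 (FDR = 0.699), *Cnga2*, at -0.06 (FDR = 0.807), and *Gng13*, at -0.05 (FDR = 0.823), lay below *Omp*. Without aged 1 the relative value of *Ano2* was 0.03, that of *Pde1c* 0.16 and that of *Adcy3* 0.11, and without aged 2 that of *Ano2* was 0.43 and that of *Pde1c* 0.42, so the order of these genes depended on the arrays kept. The error of *Omp* is shared by all these values, and the sign of those nearest 0 turned in some settings.

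The windows before the annotated start of the 3 CNG channel genes are shown because their products form one channel while their log2 fold changes ranged from 0.08 to 0.30. The windows are RefSeq promoter windows of the GRCm38.p6 assembly, 250 bases each, read 5′ to 3′ on the strand of the gene. Capitals mark CCCNNGGG, the inner part of the core binding site of the Olf-1/EBF factors of ORNs.
*Cnga2*, chrX:71991599-71991848, plus strand: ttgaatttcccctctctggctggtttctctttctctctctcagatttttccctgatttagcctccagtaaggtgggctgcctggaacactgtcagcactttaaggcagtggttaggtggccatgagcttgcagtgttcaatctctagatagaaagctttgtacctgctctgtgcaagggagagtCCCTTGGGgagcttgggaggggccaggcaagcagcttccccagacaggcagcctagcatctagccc
*Cnga4*, chr7:105404318-105404567, plus strand: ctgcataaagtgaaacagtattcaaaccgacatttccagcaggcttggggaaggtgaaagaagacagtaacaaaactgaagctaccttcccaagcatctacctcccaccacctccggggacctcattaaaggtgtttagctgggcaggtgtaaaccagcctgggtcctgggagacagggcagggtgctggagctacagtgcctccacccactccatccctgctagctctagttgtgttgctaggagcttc
*Cngb1*, chr8:95306586-95306835, minus strand: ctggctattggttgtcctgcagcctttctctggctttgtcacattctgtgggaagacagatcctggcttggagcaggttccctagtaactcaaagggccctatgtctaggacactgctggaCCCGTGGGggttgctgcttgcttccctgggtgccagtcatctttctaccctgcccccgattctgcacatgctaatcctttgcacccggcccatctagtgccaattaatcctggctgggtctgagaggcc

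Windows of 8 of the 10 genes were searched, 14 windows in all, with none of *Omp* or *Gnal*. For the cascade genes the search left out windows of a single chromosome, which it kept among all windows. The whole Olf-1/EBF core, which holds CCCNNGGG with 1 more base on each side and reads the same on both strands, was in 0 of the 14 windows and in 0.779% of 32851 windows of that length. TAATTA, a homeodomain core that also reads the same on both strands, was in 0 of the 14 and in 4.84% of all windows. CCCNNGGG, which lies within every Olf-1/EBF core and reads the same on both strands, was searched after the whole core gave no match. It was in 5 of the 14 windows, those of *Gng13*, *Cnga2*, *Cngb1*, *Ano2* and *Slc24a4*, and in 11.8% of all windows. The fixed bases of CCCNNGGG are all G or C. Those 5 windows were 52.8 to 62.8% G and C, and the median of all windows was 52.4%. The part of base composition in the counts was not tested. In the window of *Cnga2* the first base of CCCNNGGG lay at -66 from the annotated start, in that of *Cngb1* at -129, and the *Cnga4* window held none. These are matches of letters and not measured binding.

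The other genes of the pathway were taken as a list of 36 by role (G protein partners, kinases and arrestins, phosphodiesterases, calmodulins and their kinases, calcium and chloride transporters, and genes of guanylyl cyclase neurons). Limma called 2 of the 36 higher and none lower in aged mice, beside the 1.65% and 2.33% of all genes. At P below 0.05, 3 were higher and 5 lower, beside 6.05% and 7.09% of all genes. The median log2 fold change was 0.01, with 19 genes above 0 and 17 below. *Pde4a*, another phosphodiesterase that breaks down cyclic AMP, was at 11009 and 11015 in the young adult pools and at 15695 and 14482 in the aged pools (log2 fold change 0.45, FDR = 0.249 by limma). *Stoml3*, a stomatin-like protein of ORN cilia, was at 30691 and 29551 in the young adult pools and at 41364 and 39866 in the aged pools (0.43, FDR = 0.243). Both lay beyond the spread of either age, with the FDR just within the limit.

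*Gnb1*, a G protein beta subunit that pairs with *Gng13*, had a log2 fold change of 0.04 (FDR = 0.866 by limma). *Slc12a2*, the cotransporter that loads ORNs with chloride, was at 33736 and 31853 in the young adult pools and at 30652 and 32117 in the aged pools (-0.06, FDR = 0.785). The ages overlapped for both genes. *Pde2a*, the phosphodiesterase of guanylyl cyclase neurons, was at -0.34 (FDR = 0.284) and *Arrb1*, an arrestin, at -0.31 (FDR = 0.322). *Ric8b*, a chaperone of Golf, was at 0.26 (FDR = 0.342). *Grk2*, a receptor kinase, was at -0.34 (FDR = 0.353), *Prkg1*, a cyclic GMP-dependent kinase, at -0.37 (FDR = 0.344), and *Guca1a*, a guanylyl cyclase activator, was not well above background on any array. None of these 8 was called. The last 6 were named after their values were seen, as the genes that passed P below 0.05 and not the FDR limit.

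Of the 53 paralogs of the cascade genes, members of the same families, none was called higher and 3 were called lower by limma. Over all genes the shares were 1.65% and 2.33%. At P below 0.05 the counts were 0 and 10, beside 6.05% and 7.09% of all genes. Of the paralogs, 8 were well above background on no array. The median log2 fold change was -0.15, with 38 of 53 below 0, where 51.5% of all genes lay above 0. The 3 were G protein gamma subunits: *Gng11* (-0.77, FDR = 0.185), *Gng3* (-0.74, FDR = 0.225) and *Gngt2* (-0.54, FDR = 0.21). *Gnas*, the close relative of *Gnal*, was at 2149 and 2250 in the young adult pools and at 1936 and 2005 in the aged pools (-0.16, FDR = 0.518). Its direction was opposite to that of *Gnal*, and neither was called. The paralog and pathway lists share *Gng7*, *Pde1a* and *Cnga3*.

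**Figure D4:**
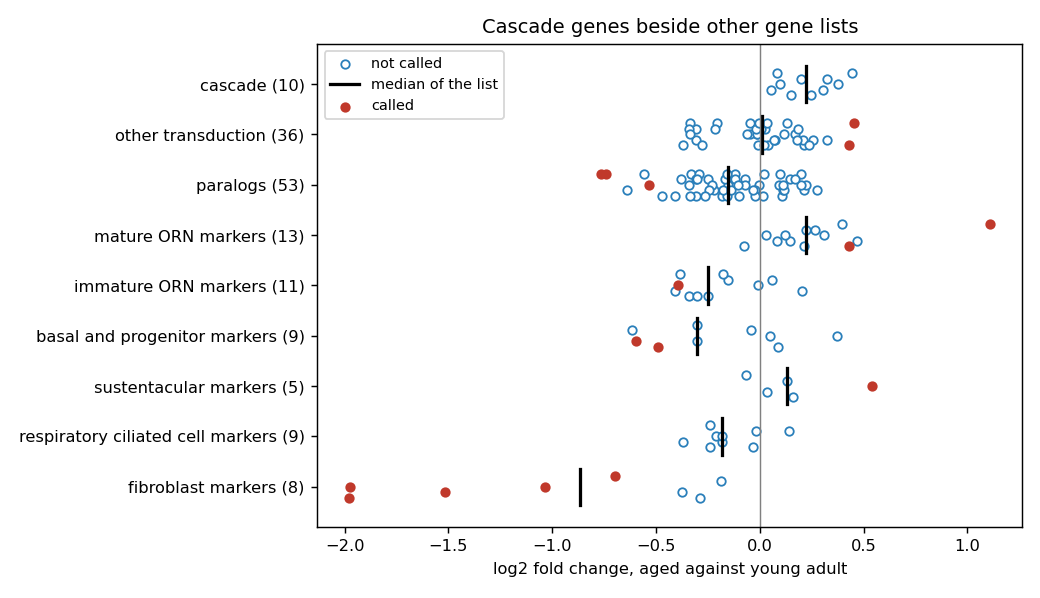
The horizontal axis gives the log2 fold change, aged against young adult, of each gene of 9 lists, with the number of genes in brackets. Filled red points are called genes, open blue points genes not called, and black lines the medians, which are 0.22 for the cascade and the mature ORN markers, 0.01 for the other transduction genes and -0.15 for the paralogs.

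Markers of the cell types in the tissue were read on the same arrays. The counts of each marker list stand beside 1.65% of all genes called higher and 2.33% called lower. At P below 0.05 the shares of all genes were 6.05% higher and 7.09% lower, and 51.5% had a log2 fold change above 0. Of 13 further markers of mature ORNs, 12 were above 0 and 2 were called higher by limma, *Kirrel2*, an adhesion molecule of ORN axons (log2 fold change 1.11, FDR = 0.178), and *Stoml3*, which is also in the pathway list, with a list median of 0.22. *Rtp1*, which carries odorant receptors to the membrane, was at 0.14 (FDR = 0.53). The summed intensity of these markers was 264988 to 271948 on the young adult arrays and 333417 to 352066 on the aged arrays. *S100a5* was the brightest of them, with a mean of 117284 in the young adult pools and 162383 in the aged pools (FDR = 0.258 by limma). The sums thus depended in large part on this gene, which was named after its values were seen.

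Of 11 markers of immature ORNs, 9 were below 0 and 1, *Dpysl3*, was called lower (-0.40, FDR = 0.247 by limma), with a median of -0.25 and a summed intensity of 113393 to 113602 in the young adult pools and 102611 to 103291 in aged mice. *Gap43*, a growth cone protein, was at -0.41 with FDR = 0.25, which rounds to the limit and was not under it, and *Gng8*, the gamma subunit of immature ORNs, at -0.34 (FDR = 0.297). Relative to *Omp*, *Gap43* (-0.56, FDR = 0.189), *Gng8* (-0.49, FDR = 0.202) and *Dpysl3* (-0.54, FDR = 0.193) were called lower by limma. Over the whole table, 7.28% of genes were called lower relative to *Omp*. Of the other markers in the list, *Stmn1* and *Tubb3* were called lower in this way. *Dpysl5*, *Stmn2*, *Stmn4*, *Crmp1*, *Trib3* and *Dcx* were not. These further genes were named after their values were seen.

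Of 9 markers of basal and progenitor cells, 2 were called lower, *Krt5* (-0.49) and *Kit* (-0.60; FDR = 0.216 for both by limma), and the summed intensity was 36303 to 36381 in the young adult pools and 29954 to 30554 in aged mice. The list was mixed, with 6 below 0 and 3 above, and *Lgr5*, a stem cell receptor named after its value was seen, was at 0.37 (FDR = 0.258). *Krt5*, with a mean of 14932 in the young adult pools and 10615 in the aged pools, was the brightest. *Krt14* followed, at 8592 and 6966, so the sums depended in large part on these genes. *Sox2* was at -0.04 and *Trp63* at 0.05, and neither was called. *Krt14*, *Sox2* and *Trp63* were also named after their values were seen. Of 5 markers of sustentacular cells, *Cyp1a2* was called higher (0.54, FDR = 0.209), and *Cyp2g1* was at 0.16 (FDR = 0.498), with sums of 782874 to 786022 and 813678 to 824055. Of 9 markers of respiratory ciliated cells none was called by limma (at P below 0.05, 0 higher and 1 lower). Their median log2 fold change was -0.18, with 8 below 0 and 1 above. *Foxj1* was at -0.03, and the sums were 70440 to 70517 and 62348 to 62419. Of 8 markers of fibroblasts 5 were called lower, *Col1a1* and *Col3a1* (-1.98 and -1.97, FDR = 0.168), *Col1a2* (-1.52), *Postn* (-1.03) and *Lum* (-0.70), and the sums were 228533 to 253411 and 119586 to 127697. Quantile normalization sets each array's values relative to the others on it, so these levels are relative.

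Of 7 pituitary markers, *Prl* and *Gh* were called higher by limma, *Prl* with a log2 fold change of 4.96 (FDR = 0.102), and the summed intensity was 1151 to 1229 in the young adult pools and 9294 to 9817 in aged mice. On the young adult arrays *Gh* did not stand well above background. Of 5 vomeronasal neuron markers 3 were matched and none was called (at P below 0.05, 1 higher and 1 lower). Of the 3, 1 was well above background on all arrays, and the sum was 173 to 188 in the young adult pools and 152 on both aged arrays. The part of these cell types in the differences of the cascade genes was not tested.

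The 5 genes whose values over the 4 arrays were most like the mean profile of the cascade genes, by Euclidean distance of the centred log2 values among 14132 genes with a mean intensity of at least 100 and all probes well above background, were *Poldip3* (distance 0.0064), *Ppp2r5b* (0.012), *Fam20a* (0.013), *Snrk* (0.015) and *Dmrta1* (0.018). Of the cascade genes themselves, *Cnga4* lay nearest to that profile (0.040) and *Ano2* farthest (0.27). With 4 arrays a profile has few ways to vary, and the likeness is a description.

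**Figure D5:**
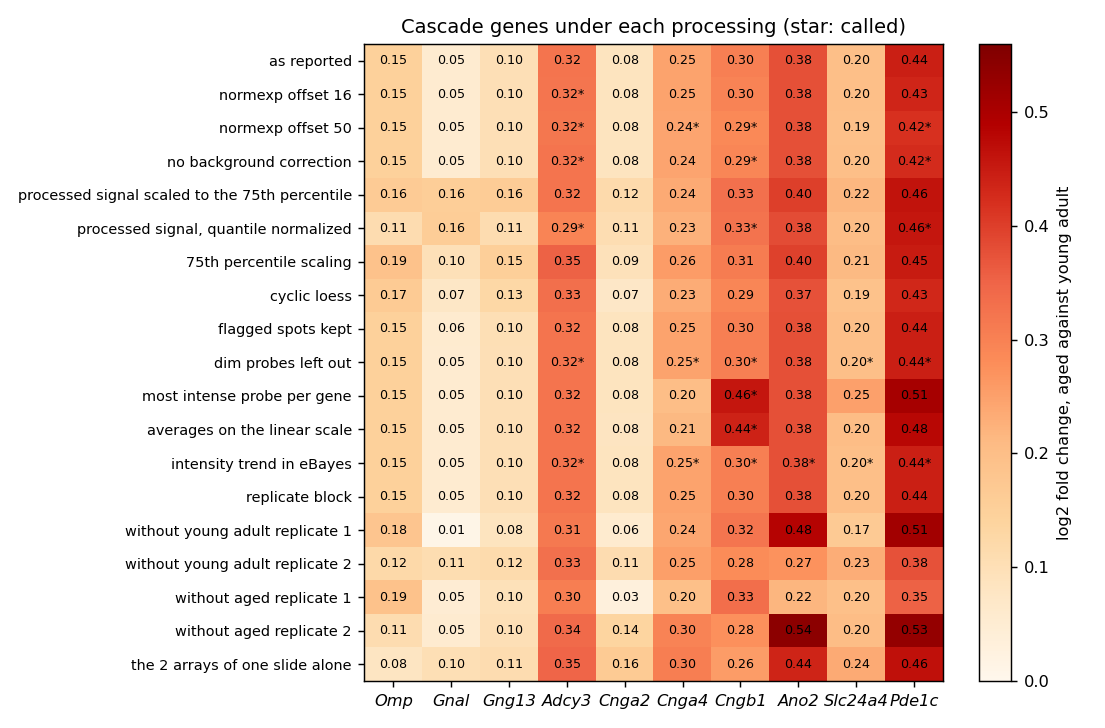
Each row is one way of processing the arrays, each column a cascade gene, and the color and the printed number give the log2 fold change, aged against young adult. A star marks a call at P below 0.05 and FDR below 0.25. All values are above 0, and the calls range from 0 to 6 of the 10 genes.

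The call of the cascade genes depended on the processing, whereas the direction did not. The median log2 fold change lay between 0.20 and 0.25 in all settings tried. The number of cascade genes called higher was 4 with a normexp offset of 50, where 4.62% of all genes were called higher. It was 5 with dim probes left out of the table, where 11.7% were, and 6 with an intensity trend in the moderation, where 7.91% were. *Adcy3* was among the called genes in each of these 3 settings, as were *Cngb1* and *Pde1c*. No cascade gene was called lower in any setting. Leaving out any 1 array left no gene of the whole table called.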

How the data were processed

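The authors isolated RNA from nasal mucosa (septal, per the labels), hybridized it to one-color Agilent arrays and read the spots with Feature Extraction 11.0.1.1. They deposited, per array, the intensity of each spot and of its local background, with no normalization between arrays. The deposited value table equalled the processed intensity for all 62976 spots and was not an independent source. No mean spot signal was among the columns, so the median was used. In limma 3.58.1 under R 4.3.3, intensities were corrected by normexp (offset 0), control and outlier spots were removed, replicate spots averaged, arrays quantile normalized, and a gene's probes averaged as log2 values. The study's methods name limma, background correction, averaging over duplicate probes and over a gene's probes, quantile normalization and the P and FDR limits. Normexp, its offset, the removal of outlier spots and the log2 averaging were chosen here. The further limits of the methods for a differentially expressed gene, a mean of at least 100 and a fold change of at least 1.5, were not part of a call and were run as an alternative. Of 56605 probes, 32994 (58.3%) matched a RefSeq table of GRCm38.p6, whose build differs from that of the array design. No gene coordinates were therefore taken for the probes, and the coordinates printed above are those of the promoter windows. Ages were compared with lmFit and eBayes without covariates, and P-values were adjusted over all 45616 genes, 12 of which lacked a value on an array. The fit was tested on simulated data. For one gene, the smallest P of an exact two-sided permutation test with 2 arrays per age is 0.333. The moderated spread combines 2 residual with 1.38 prior degrees of freedom, and the number of arrays limits the precision. The cascade genes and all lists were chosen with earlier results of these data known. Genes of other lists were named where they were called, up to 6 a list with a mean intensity of at least 100, together with a fixed set of defining markers. Genes named outside this rule are marked as such. Alternatives covered background offsets and corrections, the processed signal, other scalings, outlier spots kept, dim probes left out, other averaging over probes, an intensity trend, the replicate number as a block, 1 slide alone, each array left out and other thresholds. Descriptions of silica and lung in the labels match neither the titles nor the methods and were not used. The histology and qRT-PCR were not analysed here.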

Additional observations from a re-analysis of the deposited data

How the results depend on the processing

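The direction of all 10 cascade genes was higher in aged mice in each setting, with a median log2 fold change from 0.20 to 0.25, and no setting called one lower. The number called higher, 0 as reported, was 1 with a normexp offset of 16, 4 with an offset of 50, 3 with no background correction, 3 with the processed signal quantile normalized, 5 with dim probes left out, 1 with the most intense probe per gene, 1 with averages on the linear scale, 6 with an intensity trend and 3 at P below 0.05 with no FDR limit. For the other transduction genes, 2 were called higher as reported. This was 0 with the processed signal scaled to the 75th percentile, with scaling to the 75th percentile alone, at an FDR below 0.05 and with limits of 100 on mean intensity and 1.5 on fold change. It was 6 with the processed signal quantile normalized, 7 with dim probes left out, 7 with an intensity trend and 0 whichever array was left out. The number called lower, 0 as reported, was 1 with an offset of 16 and with linear averages, 3 with an offset of 50, with no background correction and with the processed signal quantile normalized, 4 with dim probes left out and with an intensity trend, and 5 with no FDR limit. The share of all genes called lower was 2.33% as reported, 3.71% with an offset of 16 and 3.51% with linear averages. It was 5.43% with an offset of 50, 4.91% with no background correction and 5.14% with the processed signal quantile normalized. With dim probes left out it was 12.6%, with an intensity trend 7.71% and with no FDR limit 7.09%. Over all genes, the share called higher was 1.65% as reported, 2.85% with an offset of 16, 4.62% with an offset of 50, 3.92% with no background correction, 4.45% with the processed signal quantile normalized, 2.2% with the most intense probe, 2.49% with linear averages, 11.7% with dim probes left out and 7.91% with an intensity trend. In counts, 754 were called higher and 1063 lower as reported, 3446 and 3707 with dim probes left out, which tests fewer genes, 3607 and 3517 with an intensity trend, and 0 and 0 with any array left out. Otherwise the cause was not tested.

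With the replicate number as a block, 0 genes of the table were called, among them 0 other transduction genes higher. Deviations from the age means had a correlation of -0.0779 between arrays of the same number. With 2 arrays per age both pairs give this same value by construction. It therefore cannot decide whether the numbers pair the samples. Slide as a random block was not run, because its correlation could not be estimated with 4 arrays. Relative to *Omp*, some log2 fold changes near 0 changed sign. *Gnal* was at 0.047 with the processed signal quantile normalized, and on slide 1 alone *Gnal* was at 0.022, *Gng13* at 0.031 and *Cnga2* at 0.085. With 1 array left out, *Cnga2* ranged from -0.159 to 0.027, the highest without aged 2, and *Slc24a4* from -0.014 to 0.11, the lowest without young adult 1. Both aged arrays lay above both young adult arrays for 9 of the 10 cascade genes with cyclic loess, a count added after seeing the data.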
